A study of Oryza sativa with 6 samples.

Results

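The 9 genes described here encode enzymes of the flavonoid and anthocyanin pathway, out of 55986 gene models in the count table. They were chosen by locus identifier: chalcone synthase CHS1 (LOC_Os11g32650), chalcone isomerase CHI (LOC_Os03g60509), flavanone 3-hydroxylase F3H (LOC_Os04g56700), flavonoid 3'-hydroxylase F3'H (LOC_Os10g17260), dihydroflavonol reductase DFR (LOC_Os01g44260), anthocyanidin synthase ANS (LOC_Os01g27490), and the cytochrome P450 enzymes CYP93G1 (LOC_Os04g01140), CYP93G2 (LOC_Os06g01250) and CYP75B4 (LOC_Os10g16974). The deposited files hold identifiers only, so the names are those given with the member list. Of the 9 names, 2 (CHS1 and CHI) were also found in NCBI RefSeq's rice gene table (assembly ASM3414082v1), each on the chromosome that the identifier gives.

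RNA was sequenced from leaves of 2 lines of japonica rice (Oryza sativa), taken at an age of 4 weeks from plants kept under normal conditions in a Shanghai paddy field. Balilla-4x is an artificially made tetraploid with 48 chromosomes, obtained by doubling the genome of Balilla-2x, a diploid Italian variety with 24 chromosomes and a low seed setting rate. Each line had 3 libraries, with 16738447 to 17078688 counts in Balilla-4x and 17147985 to 18106962 in Balilla-2x. The labels do not say whether the libraries came from separate plants, so p-values measure the spread between libraries, which may be technical. The libraries separated by line: their log2 CPM (library-scaled counts) correlated across genes at 0.971 to 0.984 within lines and 0.886 to 0.922 between lines, which describes the libraries only. Balilla-4x replicate 1 stood somewhat apart, at 0.972 and 0.971 with its own line against 0.984 between the other 2.

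Flavonoids are made in plants from the phenylpropanoid coumaroyl-CoA. CHS joins it with malonyl units into a chalcone, and CHI closes the chalcone into the flavanone naringenin. In grasses the flavanone stands at a branch point: F3H leads it towards dihydroflavonols, from which DFR and ANS make coloured anthocyanidins, while the rice P450s CYP93G1 and CYP93G2 lead it towards colourless flavones, among them tricin and C-glycosylated flavones, which are the usual flavonoids of green rice leaves.

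The leaf libraries of both lines held abundant CHI transcript, low to moderate levels of CHS1 and of the flavone enzymes, and almost no transcript of DFR and ANS. CHI stood at 98.0 ± 9.89 FPKM in Balilla-4x, against 73.5 ± 6.54 FPKM in the diploid (mean ± SD of 3 libraries each). FPKM is a level scaled to gene length and library total, and it is used here for comparing genes with one another. DFR and ANS had at most 5 counts in any library. F3H had 0 counts in every Balilla-4x library and was read mainly in 1 Balilla-2x library, at 2.58 FPKM. Its Balilla-2x mean of 0.951 FPKM, carried by that library, lay above the 0.299 FPKM of the flavone enzyme CYP93G1.

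None of the enzymes that could be tested differed between the lines past the threshold. Of the 9, 6 passed the filter on low counts, and 0 of these 6 had an adjusted p under 0.05 in edgeR's quasi-likelihood test. Among all 20976 tested genes the share was 26.1% (12.4% higher and 13.7% lower in Balilla-4x). With only 6 enzymes, a difference from that share was not tested. At an unadjusted p under 0.05 the count was 1 of 6 (CHI), against 39.2% of all tested genes. DESeq2 called 1 after adjustment, CHI. The estimates were positive for CHI, CYP93G1 and CYP93G2 and negative for CHS1, F3'H and CYP75B4. The 95% interval of the fold change reached past 2-fold for 3 of the 6 (CHS1, CYP93G1 and CYP93G2), so for these a 2-fold difference could not be set aside. It did so for 37.2% of all tested genes, a share that includes the 11.7% called with a change of at least 2-fold.

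**Figure D1:**
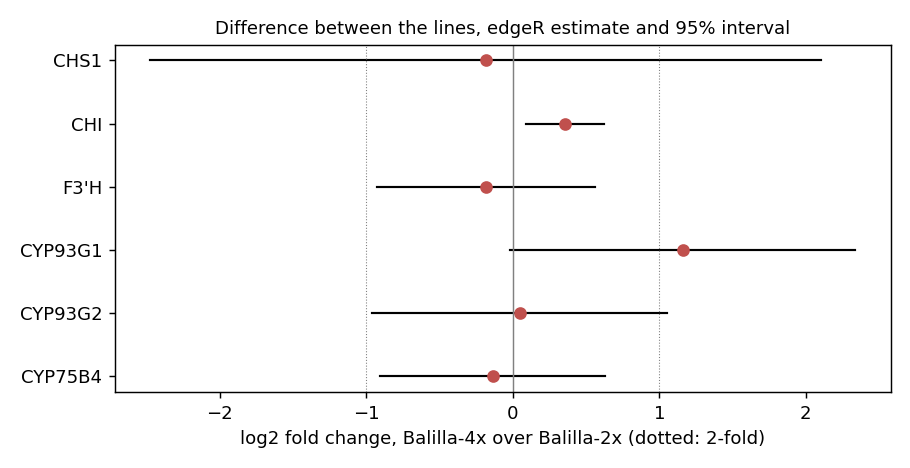
Log2 fold change of Balilla-4x over Balilla-2x for the 6 tested enzymes, with edgeR's estimate as a point and its 95% interval as a bar; dotted lines mark 2-fold. CHI has the narrowest interval (0.09 to 0.62) and CHS1 the widest (-2.47 to 2.10).

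CHI, the second enzyme of the pathway, was the member with the highest level and the smallest spread. Its CPM (counts relative to library sizes scaled by TMM) was 103, 84.8 and 105 in the Balilla-4x libraries, against 82.9, 77.2 and 68.6 in the Balilla-2x libraries. Every Balilla-4x library lay above every Balilla-2x library. Such a lack of overlap was seen in 44.3% of all tested genes and in 1 of the 6 tested enzymes. The fold change was 1.28 (95% interval 1.07 to 1.54), with a log2 value of 0.36 and a standard error of 0.12, and the edgeR adjusted p was 0.0526, just short of the threshold. Scaled by library totals instead, the log2 value was 0.42 and the edgeR adjusted p 0.0261. The median log2 value of all tested genes moved likewise, from 0.01 to 0.07, so the larger value was not particular to CHI. Without Balilla-4x replicate 2 the log2 value of CHI was 0.46 and the edgeR adjusted p 0.0397. Leaving out any of the other 5 libraries did not bring the adjusted p under the threshold, and without Balilla-2x replicate 3 the log2 value was 0.28 and the edgeR adjusted p 0.179.

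CHS1, the entry enzyme, varied among libraries of the same line far more than it differed between the lines. Its counts were 12, 83 and 98 in the Balilla-4x libraries (0.703, 4.72 and 5.72 CPM), against 22, 193 and 8 counts in the Balilla-2x libraries (1.25, 10.9 and 0.474 CPM). The lines overlapped fully: the highest and the lowest library both belonged to Balilla-2x. The highest library was 8.13 times the lowest in Balilla-4x and 23.0 times the lowest in Balilla-2x. Counting error was smaller than these gaps, since the exact Poisson 95% interval was 167 to 222 for the 193 counts of Balilla-2x replicate 2 and 3.45 to 15.8 for the 8 counts of replicate 3; these intervals cover counting error only.

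The estimated fold change of CHS1 was 0.880 (95% interval 0.180 to 4.30, edgeR adjusted p = 0.911). Its sign depended on 1 library in each line. The log2 value was -0.18 with all libraries, 2.09 without Balilla-2x replicate 2 (edgeR adjusted p = 0.127) and 0.30 without Balilla-4x replicate 1 (edgeR adjusted p = 0.838). Only 17 tested genes had a larger spread of log2 CPM within lines than CHS1, whose standard deviation was 1.89 and lay at the 99.9th percentile of all tested genes. Among the 4288 tested genes with a mean CPM within 2-fold of its own, it lay at the 99.7th percentile. These percentiles describe the 6 libraries and are not a test.

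**Figure D2:**
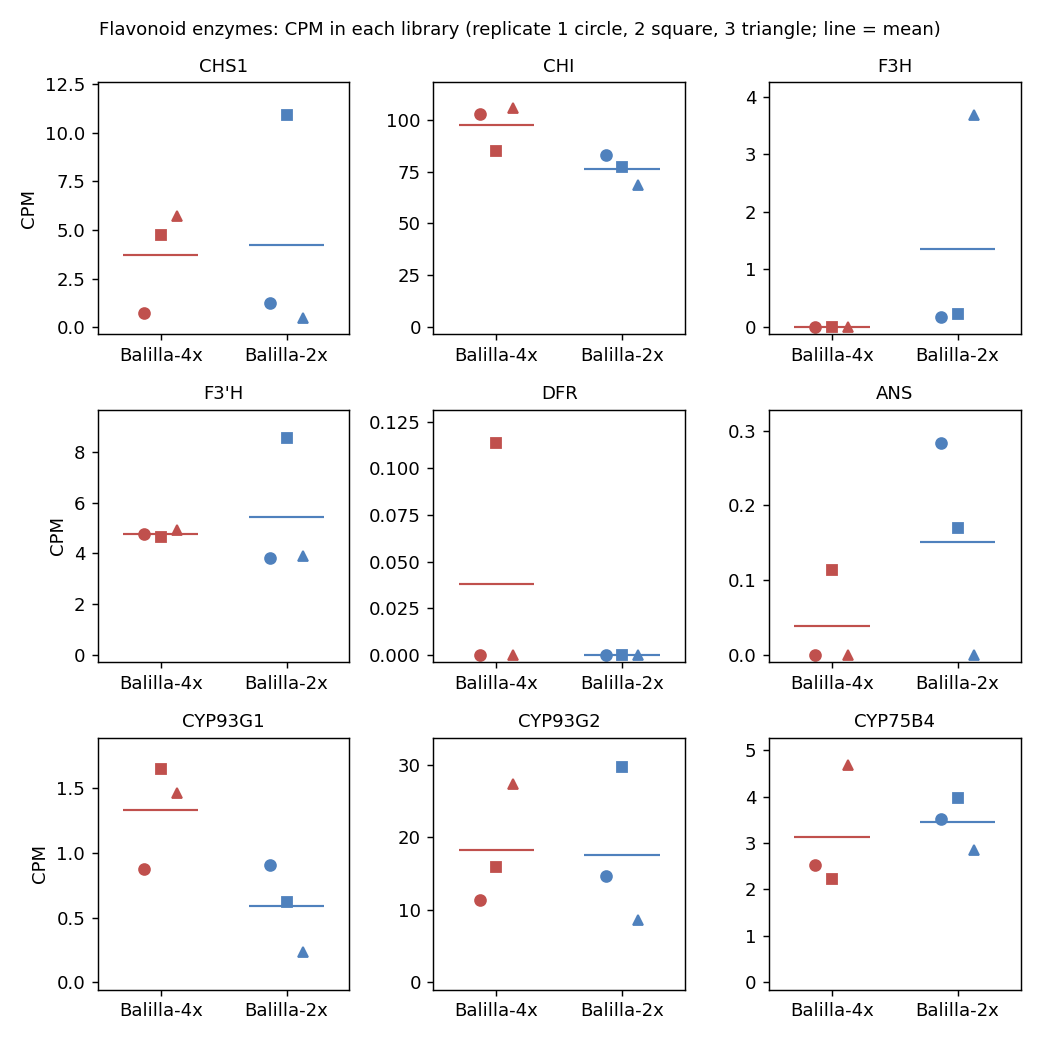
CPM of each of the 9 enzymes in each library (circle, replicate 1; square, replicate 2; triangle, replicate 3), with Balilla-4x left of Balilla-2x and a line at each mean; the vertical scale differs between panels. CHI is the only tested enzyme whose lines do not overlap, CHS1 spans 0.474 to 10.9 CPM within Balilla-2x, and F3H lies at 0 in all Balilla-4x libraries.

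The 2 entry enzymes were thus present in very unequal amounts per length. CHI exceeded CHS1 by 259, 32.0 and 32.8 times in FPKM in the Balilla-4x libraries, against 118, 12.6 and 257 times in the Balilla-2x libraries. The widest gaps, 259 and 257 times, came from 1 library of each line. The mean log2 ratio of CHS1 to CHI was -6.02 ± 1.73 in Balilla-4x, against -6.18 ± 2.26 in the diploid (mean ± SD of 3 libraries each), a difference of 0.16 (exact permutation test, two-sided p = 1). With 3 libraries against 3 the smallest p of this test is 0.1.

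For F3H, the first enzyme of the anthocyanin branch, the counts were 0, 0 and 0 in the Balilla-4x libraries, against 3, 4 and 62 counts in the Balilla-2x libraries. The lines did not overlap in counts, as was seen in CPM for 44.3% of all tested genes. Replicates 1 and 2 of Balilla-2x, at 0.170 and 0.226 CPM, lay at or little above the floor given below. A lack of overlap above that floor was thus not established, and 89.9% of the Balilla-2x counts came from replicate 3 alone. That library reached 3.68 CPM (2.58 FPKM), and its 62 counts had an exact Poisson 95% interval of 47.5 to 79.5. The floor for a count of 0 was set at 3 counts per library, which equals 0.171 to 0.176 CPM in Balilla-4x. The exact Poisson 95% interval of a count of 0 reaches 3.69, and with that limit the multiples given next would be smaller. The Balilla-2x mean of 1.36 CPM, set almost wholly by replicate 3, was 7.81 times the mean of that floor. This value takes no account of the spread among the Balilla-2x libraries and is no bound for each of them. Without Balilla-2x replicate 3 the mean was 1.14 times the floor.

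F3H failed the filter on low counts and so was not tested in the fit above. When the filter was dropped and 30986 genes were tested, its edgeR adjusted p was 0.0124. It became 0.189 when Balilla-2x replicate 3 was left out, an alternative added once the counts were known. The library with most of the F3H reads, Balilla-2x replicate 3, was the lowest of its line in 5 of the 6 tested enzymes, CHS1 among them. F3'H, with 3.91 CPM there, was the exception. Balilla-4x replicate 3 was the highest of its line in 5 of the 6. Shares over all tested genes were not computed for these counts. Of the 10 nearest tested genes by locus number on chromosome 4, 5 on each side of F3H, 3 were lower and 0 higher in Balilla-4x. That was 30% called, beside 26.1% of all tested genes (13.7% lower and 12.4% higher). Over all 9 enzymes 7 neighbours were higher and 7 lower of 86 (16.3%, beside 26.1% of all tested genes). CYP93G1 had only 6 such neighbours. CYP75B4 and F3'H were counted as neighbours of each other, and neighbours of both were counted for each.

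DFR and ANS, the late enzymes that lead to anthocyanidins, were at or near the limit of detection in both lines. DFR had 0, 2 and 0 counts in Balilla-4x and 0, 0 and 0 in Balilla-2x, so both lines lay under the floor of 3 counts per library and no fold is given. ANS had 0, 2 and 0 counts in Balilla-4x and 5, 3 and 0 in Balilla-2x. Summed over the libraries of a line and scaled to their sizes, the ratio of Balilla-4x to Balilla-2x for ANS was 0.252, with an exact binomial 95% interval of 0.0260 to 1.26 that covers counting error only. A difference in DFR or ANS was not detectable at this depth. The 2 counts of DFR and the 2 counts of ANS in the tetraploid fell in the same library, replicate 2.

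F3'H, which adds a hydroxyl group to the B-ring of flavonoids, was almost the same in all Balilla-4x libraries. It had 81, 82 and 84 counts there (4.75, 4.66 and 4.90 CPM), against 67, 151 and 66 counts in Balilla-2x (3.80, 8.55 and 3.91 CPM). The Balilla-4x libraries lay between the high Balilla-2x replicate 2 and the other Balilla-2x libraries, so the lines overlapped. The fold change was 0.880 (95% interval 0.525 to 1.47, edgeR adjusted p = 0.709), and its log2 value of -0.19 turned to 0.30 without Balilla-2x replicate 2 (edgeR adjusted p = 0.413).

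CYP93G1, a flavone synthase that turns naringenin into apigenin, had the largest estimated change among the tested enzymes. Its counts were 15, 29 and 25 in the Balilla-4x libraries (0.879, 1.65 and 1.46 CPM), against 16, 11 and 4 counts in the Balilla-2x libraries (0.908, 0.623 and 0.237 CPM). Balilla-4x replicate 1 lay just under Balilla-2x replicate 1, and the other 2 Balilla-4x libraries lay above all Balilla-2x libraries. The fold change was 2.23 (95% interval 0.987 to 5.05, unadjusted p 0.0531, edgeR adjusted p = 0.133), so the difference did not pass the threshold. The estimate stayed positive in each of 14 alternatives, with log2 values of 0.39 to 1.60 and an adjusted p (edgeR, DESeq2 or limma) of 0.0912 to 0.329.

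CYP93G2, a flavanone 2-hydroxylase that in rice opens the way to C-glycosylated flavones, was the second most abundant member. It stood at 11.4, 15.9 and 27.4 CPM in the Balilla-4x libraries, against 14.6, 29.6 and 8.54 CPM in the Balilla-2x libraries. The highest and the lowest values were both those of Balilla-2x, and the means nearly coincided, at 18.2 ± 8.26 CPM in Balilla-4x, against 17.6 ± 10.8 CPM in the diploid (mean ± SD of 3 libraries each). The fold change was 1.03 (95% interval 0.514 to 2.08, edgeR adjusted p = 0.949). Without Balilla-2x replicate 2 the log2 value was 0.64, and without Balilla-4x replicate 3 it was -0.37.

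CYP75B4, which hydroxylates flavones on the way to tricin in rice, had 2.52, 2.22 and 4.67 CPM in the Balilla-4x libraries, against 3.52, 3.96 and 2.85 CPM in the Balilla-2x libraries. The Balilla-2x values lay within the range of the Balilla-4x values. The fold change was 0.910 (95% interval 0.535 to 1.55, edgeR adjusted p = 0.796). CYP75B4 and F3'H belong to the same P450 subfamily and lie near each other on chromosome 10, with 24 gene models between them by locus number. How reads that fit both, or both CYP93G enzymes, were assigned is not given in the sources used here, so the split between such relatives is uncertain.

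Relative amounts of competing or related enzymes, which do not depend on the scaling of libraries, did not separate the lines either when all libraries were used. Of 5 ratios planned, 2 (CYP93G1 to F3H and DFR to ANS) could not be formed because of counts of 0. The FPKM ratio of CYP93G2 to CYP93G1 was 11.3, 8.41 and 16.4 in the Balilla-4x libraries, against 14.1, 41.6 and 31.5 in the Balilla-2x libraries. The ratio was lower in the tetraploid on average, by a log2 difference of -1.19, but the lines overlapped (exact permutation test, two-sided p = 0.2, adjusted 0.6 over the 3 ratios). With each library left out in turn the difference ran from -1.64 to -0.86. Without Balilla-2x replicate 1 the lines did not overlap, and the exact permutation p was 0.1, the smallest that 3 libraries against 2 can give. The ratio of CYP75B4 to F3'H was 0.470, 0.421 and 0.844 in the Balilla-4x libraries, against 0.820, 0.411 and 0.644 in the Balilla-2x libraries (log2 difference -0.13, exact permutation p = 1).

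Ordered by FPKM, the members fell into the same first 5 places in both lines: CHI, CYP93G2, F3'H, CHS1 and CYP75B4. CHI ranged from 86.6 to 104 FPKM in Balilla-4x and from 66.5 to 79.4 FPKM in Balilla-2x, clear of every other member. In Balilla-4x, CYP93G2 (5.26 to 12.5 FPKM) was also clear of F3'H (2.57 to 2.61 FPKM), and F3'H lay above CYP75B4 (1.08 to 2.21 FPKM), whereas CHS1 (0.397 to 3.18 FPKM) overlapped with both F3'H and CYP75B4. In Balilla-2x the range of each place after CHI overlapped with that of the next. Within each Balilla-2x library, however, CYP93G2 (6.46, 13.2 and 3.81 FPKM) lay above F3'H (1.97, 4.45 and 2.05 FPKM), and F3'H above CYP75B4. CHI lay at the 95.1st percentile of the mean FPKM of all tested genes, CYP93G2 at the 45.8th, F3'H at the 24.1st, CHS1 at the 20.7th, CYP75B4 at the 15.5th and CYP93G1 at the 4.13th.

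**Figure D3:**
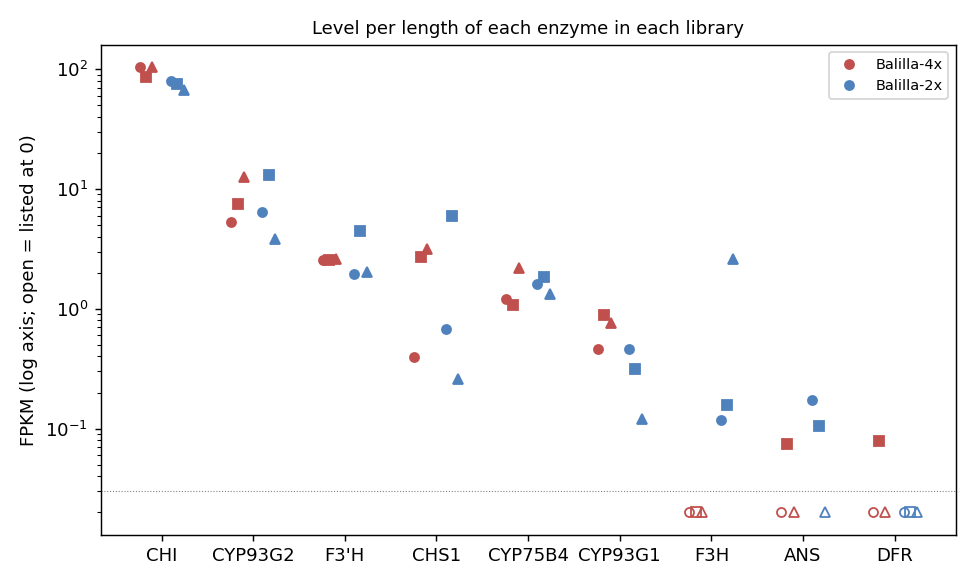
FPKM of the 9 enzymes in each library on a log axis, Balilla-4x left of Balilla-2x, with open symbols under the dotted line for libraries listed at 0. CHI lies above 66 FPKM in every library, and F3H, ANS and DFR include libraries at 0.

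CHI took 86.6% ± 4.20 of the summed FPKM of the 9 members in Balilla-4x, against 82.8% ± 7.46 in the diploid (mean ± SD of 3 libraries each). The flavone enzymes CYP93G1, CYP93G2 and CYP75B4 together took 9.24% ± 3.08 in Balilla-4x and 10.5% ± 4.30 in Balilla-2x. The anthocyanin enzymes F3H, DFR and ANS took 0%, 0.151% and 0% in the Balilla-4x libraries, against 0.321%, 0.261% and 3.36% in the Balilla-2x libraries. The last value was that of replicate 3, and F3H made up the whole of it. The summed FPKM of the 9 was 113 ± 12.0 in Balilla-4x, against 89.3 ± 12.0 in the diploid (mean ± SD of 3 libraries each).

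The library-to-library pattern of CHS1 was shared by CYP93G2. Both were lowest in replicate 1 and highest in replicate 3 of Balilla-4x, and both were lowest in replicate 3 and highest in replicate 2 of Balilla-2x. Of the other 20975 tested genes, 4.81% had the same order in both lines, and CYP93G2 was the 1 member among them. Likeness was measured as the root mean square difference from CHS1 over the 6 libraries, each gene's log2 CPM being set relative to its own mean. The value was 0.99 for CYP93G2, and 19 tested genes were nearer to CHS1. F3'H, at 1.30, and CYP93G1, at 1.34, were farther from CHS1 than CYP93G2 was, at the 2.15th and 3.17th percentile of the distances of all tested genes. CYP75B4, at 1.43, lay at the 10.02nd percentile and CHI, at 1.55, at the 32.3rd. The distance is not scaled to how much a gene varies, so it depends on a gene's spread as well as on its pattern. These values are descriptions over 6 libraries, without a test.

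Among the 15249 tested genes with a mean of at least 5 CPM, CYP93G2 included, the genes most like CHS1 were LOC_Os06g18670 and LOC_Os12g27440, whose root mean square differences were 0.91 and 0.98 against a median of 1.59. Neither identifier has a name in the files. LOC_Os06g18670 stood at 11.2, 27.7 and 47.9 CPM in the Balilla-4x libraries, against 7.61, 18.5 and 2.97 CPM in the Balilla-2x libraries. LOC_Os12g27440 stood at 3.87, 5.40 and 9.46 CPM in Balilla-4x, against 3.58, 6.40 and 1.48 CPM in Balilla-2x. Both followed the order of CHS1 within each line. Between the lines they differed from it: the highest value of each lay in Balilla-4x, that of CHS1 in Balilla-2x.

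**Figure D4:**
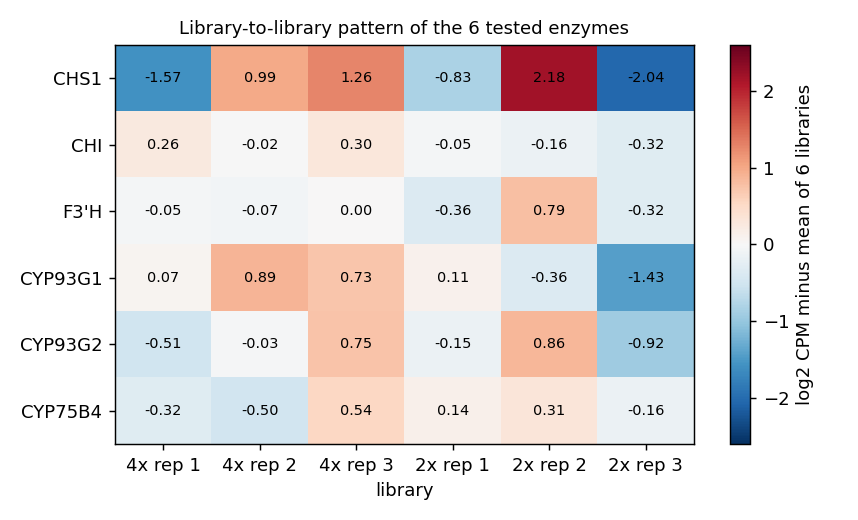
Log2 CPM of the 6 tested enzymes in each library relative to the enzyme's mean over all libraries, Balilla-4x left of Balilla-2x. CHS1 runs from -2.04 in Balilla-2x replicate 3 to 2.18 in Balilla-2x replicate 2, and CYP93G2 has its extremes in the same libraries (-0.92 and 0.86).

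A list of 10 further loci taken as flavonoid enzymes, and one of 6 taken as regulators of the pathway, was drawn from general knowledge of rice locus numbers, which the files do not annotate. Of the 10 enzyme loci, 6 were tested, 0 rose and 2 fell in Balilla-4x, both at least 2-fold, and 3 had 0 counts in all libraries. The 2-fold threshold was passed by 11.7% of all tested genes in either direction. The median log2 fold change of the 6 was -0.78, beside 0.01 for all tested genes. LOC_Os04g53850 had 101, 63 and 95 counts in Balilla-4x, against 281, 314 and 408 counts in Balilla-2x. The lines did not overlap, at 5.02 ± 1.26 CPM in Balilla-4x, against 19.3 ± 4.33 CPM in the diploid (mean ± SD of 3 libraries each), a log2 fold change of -1.94 (standard error 0.23, edgeR adjusted p = 0.000848).

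LOC_Os11g02440 stood at 107, 52.3 and 45.7 CPM in the Balilla-4x libraries, against 187, 116 and 142 CPM in the Balilla-2x libraries. Its log2 fold change was -1.12 (standard error 0.31, edgeR adjusted p = 0.0312), and the highest Balilla-4x value lay just under the lowest Balilla-2x value. The call was lost when any of Balilla-4x replicate 2 or 3 or Balilla-2x replicate 1 or 3 was left out (edgeR adjusted p from 0.0708 to 0.127). Of the 6 regulator loci, 1 was tested and did not pass (log2 fold change -0.37, edgeR adjusted p = 0.088), 2 had 0 counts in all libraries, and the other 3 had at most 5 counts in any library.

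Leaf marker loci (Rubisco small subunit and light-harvesting genes), again from general knowledge, summed to 11234 to 15457 CPM in the tetraploid and 8809 to 11306 CPM in Balilla-2x, and 4 of 6 rose (edgeR adjusted p from 0.00365 to 0.0258), beside 12.4% of all tested genes. The most abundant of them by mean CPM in both lines, LOC_Os12g19381, singled out once its values were known, had a log2 fold change of -0.28 (edgeR adjusted p = 0.294). Of 4 markers of meristem, root and seed, 3 had 0 counts in all libraries, and the 4 summed to 1.34 to 1.52 CPM in the tetraploid and 0.593 to 1.25 CPM in Balilla-2x. The part of the leaf marker difference in the enzyme values was not tested. In whole leaves, fewer cells of a type and less RNA per cell cannot be told apart, and levels relative to total RNA do not show the RNA content per cell.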

How the data were processed

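The authors deposited raw read counts per gene for 6 libraries and FPKM values per library, per the file headers. The submitters' processing notes name HISAT2 2.1.0 as a tool. Not given in the sources used here are the counter, build, annotation and strand setting. The count, FPKM and library total implied a whole gene length (within 0.01) for 100% of nonzero values, so both units hold the same measurement.

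Libraries were grouped by title. Counts were fitted for all genes in R 4.3.3 with edgeR 4.0.16 (filterByExpr, TMM, quasi-likelihood test, two-sided, Benjamini-Hochberg adjustment over 20976 tested genes, threshold 0.05). Intervals of fold changes derive from the F statistic. Log2 CPM used a prior count of 2. Alternatives were other scalings, filters, DESeq2 1.42.0, limma 3.58.1 on log2 FPKM plus 0.1 or 1, a replicate block, and leaving out each library. The fit was tested on simulated data. All 9 members were named, and of other lists at most 2 genes per direction past the threshold, by largest change. The members and lists were chosen with earlier results of these data known.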

Additional observations from a re-analysis of the deposited data

How the results depend on the processing

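The number of enzymes called was 0 of 6 and became 1 with library totals, upper quartile scaling, DESeq2, a filter of 1 CPM in 3 libraries and limma on log2 FPKM plus 1, in each case CHI, whose log2 values ran from 0.28 to 0.46 over 15 alternatives (adjusted p from 0.0225 to 0.179). Without a low-count filter it was also 1, in that case F3H. With a library left out it ranged from 0 to 1, the 1 being CHI without Balilla-4x replicate 2. CHS1 turned to log2 values of 0.48 and 0.19 with limma on FPKM plus 0.1 and plus 1 and to 0.25 with the replicate block, and from -0.72 to 2.09 with a library left out. With a library left out, F3'H ranged from -0.39 to 0.30, CYP93G2 from -0.37 to 0.64 and CYP75B4 from -0.54 to 0.076. CYP93G1 did not turn in any of 14 alternatives. The cause of these turns was not tested.

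Over all genes the number called was 5481, with 3029 to 6600 when a library was left out: 3029 and 3306 without replicates 2 and 3 of Balilla-4x, and 3269 without replicate 3 of Balilla-2x. Of the called genes 2598 were higher in Balilla-4x, against 3092 of 5398 with library totals and 3339 of 5529 with upper quartile scaling. The median log2 value of all tested genes was 0.01, against 0.07 with library totals and 0.098 with upper quartile scaling. The further flavonoid loci called numbered 2, but 1 with limma on log2 FPKM plus 0.1 and 1 to 4 with a library left out. LOC_Os11g02440 then had a log2 value of -1.14 (limma adjusted p = 0.072).

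Counts not divided by length gave the entry enzymes 79.0% in Balilla-4x and 74.6% in Balilla-2x of the members' sum, against 88.4% and 85.1% by FPKM. F3'H had 3.74% and 4.83%, against 2.30% and 3.09%, and the flavone enzymes 17.2% and 18.99%, against 9.24% and 10.5%. With a library left out, the log2 difference of the ratio CYP75B4 to F3'H ranged from -0.43 to 0.099, that of CHS1 to CHI from -0.75 to 1.43 and that of CYP93G2 to CYP93G1 from -1.64 to -0.86.

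Libraries that share a replicate number were not paired: across genes, their departures from the mean of their own line had correlations of 0.0019, -0.02 and -0.04. With the number as a replicate block 4617 genes, 0 of the enzymes and 3 of the further loci were called. The depth limits F3H, DFR and ANS, for which 3 counts equal 0.170 to 0.178 CPM.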
